A study of Mus musculus with 5 samples.

Results

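The genes described are 9 enzymes of glucose and lactate metabolism that were measured in mouse soleus: hexokinase 1 (Hk1), the aldolases Aldoa and Aldoc, Gapdh, phosphoglycerate kinase 1 (Pgk1), the lactate dehydrogenases Ldha, Ldhb and Ldhc, and pyruvate carboxylase (Pcx). They were chosen by gene symbol from the annotation of the array's probes, and each had 1 probe among 223 probes in all. The study hybridised 5 arrays with RNA of C57Bl/6 soleus, a calf muscle rich in slow fibres, at day 7 of reloading, with 3 microgram of total RNA on each array. The sample titles carry the letters wt and the numbers 1, 3, 4, 5 and 6, which name the mice here. The labels give no age or sex. All 5 arrays belong to this group, so no difference between conditions was tested, and the question addressed is how the signals of these enzymes relate to each other within each mouse and how far they differ from mouse to mouse.

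Glycolysis splits glucose into pyruvate in the cytosol and yields ATP without oxygen. Hexokinases trap glucose as glucose 6-phosphate, aldolases split fructose 1,6-bisphosphate, and GAPDH and phosphoglycerate kinase carry out the steps that form NADH and the first ATP. Lactate dehydrogenase is a tetramer that interconverts pyruvate and lactate. Its A subunit, from Ldha, prevails in fast glycolytic muscle, its B subunit, from Ldhb, in the heart and in oxidative muscle, and its C subunit, from Ldhc, in male germ cells. Pyruvate carboxylase turns pyruvate into oxaloacetate in mitochondria and is best known from gluconeogenesis in liver and kidney.

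Signals above 0 were recorded in every mouse for 8 of the 9 genes. The exception was Pcx. Over the whole array 147 of 223 probes were above 0 on all 5 arrays (65.9%). Values slightly below 0 occur on every array, and the lowest value of each array gives a sense of its background: -0.0168, -0.0059, -0.0041, -0.0103 and -0.0109 for mice 1, 3, 4, 5 and 6, in the arbitrary units of the deposited intensities. A stricter call, in which a signal must exceed the size of its own array's lowest value in every mouse, kept 5 of the 9 genes (Aldoa, Aldoc, Gapdh, Pgk1 and Ldhb) and 45.3% of all probes. Intensities of different probes also depend on the probe, so a brighter probe does not show a more abundant transcript.

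Total deposited signal ran from 70.8 in mouse 4 to 137 in mouse 1, and whole arrays differed in brightness. Over the 147 probes above 0 on all arrays, the median log2 deviation of a probe from its own mean was 0.33, -0.19, -0.17, -0.42 and 0.59 in mice 1, 3, 4, 5 and 6. Deposited levels therefore hold this array-wide part. A scaling factor common to an array cancels in a ratio of 2 genes on it, while an added background does not. The CV, the SD divided by the mean and in percent, is given after quantile normalisation and also as deposited. There were no repeat arrays, so each SD over mice holds measurement noise as well as differences between samples.

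Hk1, the hexokinase of most tissues, gave a dim signal. Its deposited intensity was 0.0107, 0.0110, 0.0097, 0.0021 and 0.0228 in mice 1, 3, 4, 5 and 6. It was high in mouse 6 and low in mouse 5, and it lay below the size of the array's lowest value in mice 1 and 5. The CV of Hk1 was 28.2% after quantile normalisation and 65.8% as deposited, and it was 16.0% after normalisation without mouse 5. Among the dimmest 49 measured probes the median CV was 44.4% after normalisation. Hexokinase 2, the insulin-regulated form of muscle, was not analysed here.

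**Figure D1:**
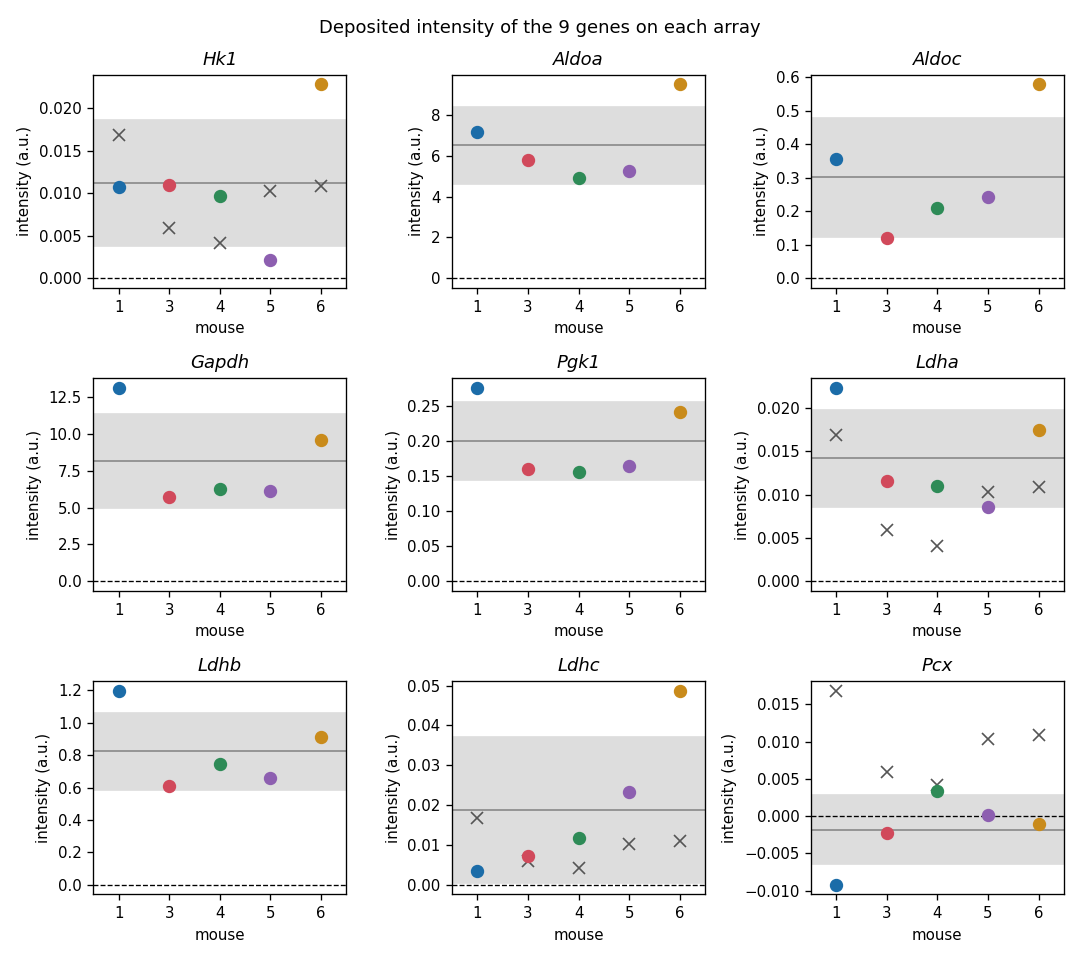
Deposited intensity in arbitrary units (y axis, linear, a separate scale for each gene) of the 9 genes on the arrays of mice 1, 3, 4, 5 and 6 (x axis, circles). The line and band give the mean and 1 SD over 5 mice, the dashed line is 0, and crosses in the panels of dim genes mark the size of the lowest value of each array. Gapdh, Pgk1, Ldha and Ldhb are highest in mouse 1 and next highest in mouse 6, while Ldhc is lowest in mouse 1, at 0.0033, and highest in mouse 6, at 0.0487.

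Both aldolase probes were among the brightest 49 measured probes and differed in how they varied. Aldoa, the aldolase of muscle, had a deposited intensity of 7.16, 5.79, 4.91, 5.27 and 9.52 in mice 1, 3, 4, 5 and 6. Aldoc, the form best known from brain, was at 0.356, 0.120, 0.209, 0.241 and 0.578 in the same order. Both were highest in mouse 6, but the lowest value of Aldoa was in mouse 4 and that of Aldoc in mouse 3. The highest value of Aldoa was 1.94 times its lowest, and that of Aldoc 4.82 times. The CVs after normalisation were 8.37% for Aldoa and 32.3% for Aldoc, beside a median of 19.5% over those 49 probes. Normalisation gave Aldoa only 2 distinct values, since few probes are as bright, and its CV was 28.7% as deposited. The CV of Aldoc was 58.7% as deposited and 21.1% after normalisation without mouse 3.

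The ratio of the Aldoa to the Aldoc signal was highest in mouse 3. It was 20.1, 48.3, 23.5, 21.9 and 16.5 in mice 1, 3, 4, 5 and 6. On the log2 scale the mean ratio was 4.59 ± 0.59 (SD, n = 5), and the SD was 0.22 without mouse 3. The gap of mouse 3 to the next value was 0.670 of the whole range, under the critical value of 0.71 of Dixon's outlier test for 5 samples. Of the 13 sets of levels and ratios checked, 0 passed it. The normalised levels of Aldoa, tied at both ends, could not pass, and the ratios share probes. For comparison, the median SD of the log2 ratio was 0.75 over all 10731 pairs of measured probes and 0.50 over pairs of 2 bright probes. The SD of the aldolase ratio lay between the quartiles of bright pairs, 0.34 and 0.69. In mouse 3 it was Aldoc that was low: the ratio of Aldoc to Pgk1 on the log2 scale was -0.42 there and 0.37 to 1.25 in the other mice.

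Gapdh and Pgk1, which catalyse consecutive steps, had a narrow ratio in the deposited values. Gapdh had a deposited intensity of 13.1, 5.73, 6.26, 6.09 and 9.59 in mice 1, 3, 4, 5 and 6. Pgk1 was at 0.277, 0.160, 0.156, 0.165 and 0.243 in the same order. Both were high in mice 1 and 6 and low in the others, and the values in mice 3, 4 and 5 lay close together. The log2 ratio of Gapdh to Pgk1 was 5.57, 5.16, 5.32, 5.21 and 5.31 in mice 1, 3, 4, 5 and 6, with an SD of 0.16. Of the pairs of 2 bright probes, 3.32% had a smaller SD. After quantile normalisation the SD of this ratio was 0.38, where Gapdh, like Aldoa, took few distinct values: 8.92 in mice 1, 4 and 6, 5.90 in mouse 3 and 6.89 in mouse 5. The CV of Gapdh was 18.1% after normalisation and 39.0% as deposited, and that of Pgk1 18.8% and 27.9%. After normalisation the CV of Gapdh was 11.3% without mouse 3, and that of Pgk1 was 9.83% without mouse 1. Scaled to the array total, the CV of Pgk1 was 6.93%, and scaled to the array median, that of Gapdh was 29.9%.

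Of the lactate dehydrogenases, Ldhb was bright, and Ldha and Ldhc were dim. Ldhb had a deposited intensity of 1.20, 0.608, 0.748, 0.657 and 0.912 in mice 1, 3, 4, 5 and 6. Ldha was at 0.0223, 0.0115, 0.0110, 0.0086 and 0.0174 in the same order, below the size of the array's lowest value in mouse 5 only. Both were highest in mouse 1 and next highest in mouse 6. Ldhc was at 0.0033, 0.0071, 0.0117, 0.0232 and 0.0487 in mice 1, 3, 4, 5 and 6, so that its highest value was 14.8 times its lowest. Its value in mouse 1 was below the size of that array's lowest value. The CVs after normalisation were 16.8% for Ldhb, 23.5% for Ldha and 80.6% for Ldhc, and as deposited 28.9%, 39.4% and 97.4%. Without mouse 1 those after normalisation were 18.0%, 14.9% and 65.9%, so that the order of Ldha and Ldhb turned.

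The ratio of the Ldhb to the Ldha signal was nearly constant. It was 53.7, 52.9, 68.0, 76.4 and 52.4 in mice 1, 3, 4, 5 and 6, so that the highest was 1.46 times the lowest. The highest, in mouse 5, rests on an Ldha signal not above the size of that array's lowest value. On the log2 scale it was 5.90 ± 0.25 (SD, n = 5), and the SD was between 0.18 and 0.27 when any mouse was left out. Pairs of a bright and a dim probe had a median SD of 0.91, and 1.33% of them had a smaller SD than this pair. The median SD of Ldha to all other probes, 0.51, was also low for a dim probe. Since the size of the ratio depends on the probes, it does not give the proportion of A and B subunit transcripts. Adding the size of each array's lowest value to all its signals moved the mean log2 ratio of Ldha to Ldhb from -5.90 to -5.18, with an SD of 0.27.

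Ratios of the other lactate dehydrogenases to Ldhc were wide. The ratio of the Ldhb to the Ldhc signal was 85.7, 63.9, 28.3 and 18.7 in mice 3, 4, 5 and 6. That of Ldha to Ldhc was 1.62, 0.940 and 0.357 in mice 3, 4 and 6. No ratio is given for mouse 1, where Ldhc was not above the size of the lowest value, and none for Ldha in mouse 5, where Ldha was not. Over all 5 mice, these values included, the log2 mean was 5.99 ± 1.66 (SD, n = 5) for Ldhb to Ldhc and 0.09 ± 1.75 (SD, n = 5) for Ldha to Ldhc. The SDs were 1.02 and 1.07 without mouse 1, and 0.87 and 0.85 with the size of the lowest value added to each array, against medians over all probe pairs of 0.55 and 0.50 in these settings. The germ cell markers fixed beside the gene list were not analysed here, and cross-hybridisation of the Ldhc probe was not tested.

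**Figure D2:**
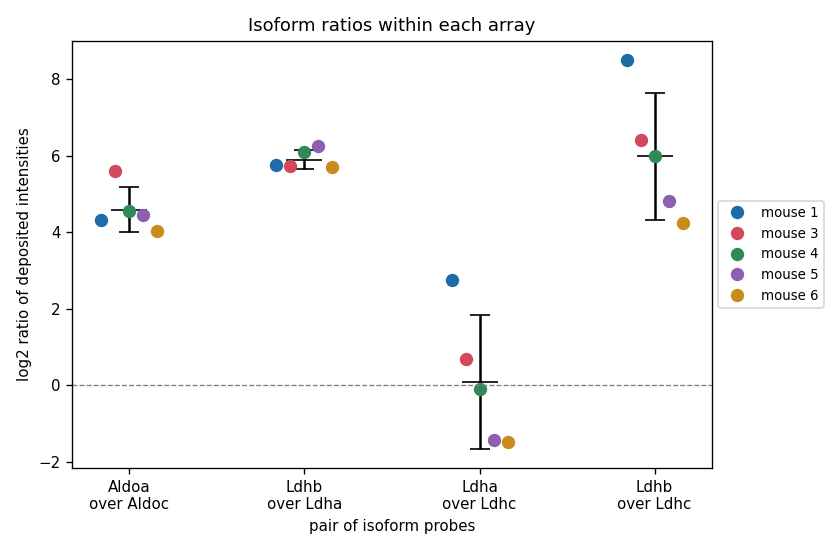
Log2 ratio of deposited intensities (y axis) for 4 pairs of isoform probes (x axis), with a circle for each mouse and a bar for the mean and 1 SD over 5 mice. Ldhb over Ldha lies between 5.71 and 6.25, Aldoa over Aldoc has mouse 3 at 5.59 above the rest, and the ratios to Ldhc are the widest of the 4. The points of mouse 1 in both ratios to Ldhc, and of mouse 5 in those with Ldha, rest on a signal not above the size of the array's lowest value.

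The sequences before the transcription starts of Pgk1, Ldha, Ldhb and Ldhc are shown because the ratios among the first 3 of these genes were narrow in these mice and those to Ldhc wide. They are the 250 bases before the first listed start of each gene in RefSeq, build GRCm38.p6, at chrX:106186850-106187099 (plus strand) for Pgk1, chr7:46845554-46845803 (plus strand) for Ldha, chr6:142507958-142508207 (minus strand) for Ldhb and chr7:46861013-46861262 (plus strand) for Ldhc. Capitals mark the letters ACGTG on either strand, a form of the core of the element bound by hypoxia-inducible factors. Other forms of the core, such as GCGTG, were not searched. CACGTG holds a match on both strands.
Pgk1: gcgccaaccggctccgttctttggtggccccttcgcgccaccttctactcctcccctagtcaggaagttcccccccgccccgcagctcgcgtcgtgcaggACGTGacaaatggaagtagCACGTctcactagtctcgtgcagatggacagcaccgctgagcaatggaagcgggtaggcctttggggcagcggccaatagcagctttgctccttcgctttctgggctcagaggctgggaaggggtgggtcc
Ldha: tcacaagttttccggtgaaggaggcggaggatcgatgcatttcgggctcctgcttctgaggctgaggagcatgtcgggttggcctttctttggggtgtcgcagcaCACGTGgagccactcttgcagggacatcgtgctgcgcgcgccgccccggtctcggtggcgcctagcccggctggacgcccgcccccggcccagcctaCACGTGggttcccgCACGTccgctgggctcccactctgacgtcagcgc
Ldhb: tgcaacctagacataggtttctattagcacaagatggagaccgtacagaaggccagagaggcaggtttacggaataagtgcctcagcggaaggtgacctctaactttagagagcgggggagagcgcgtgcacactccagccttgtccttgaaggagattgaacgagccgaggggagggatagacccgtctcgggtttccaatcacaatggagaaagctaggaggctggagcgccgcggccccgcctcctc
Ldhc: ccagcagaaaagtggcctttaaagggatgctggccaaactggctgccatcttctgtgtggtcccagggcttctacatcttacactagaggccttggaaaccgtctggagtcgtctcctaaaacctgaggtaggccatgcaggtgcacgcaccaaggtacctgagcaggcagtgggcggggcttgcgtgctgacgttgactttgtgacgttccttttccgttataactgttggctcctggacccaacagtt

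The Pgk1 window held 2 matches and the Ldha window 5, in 3 separate stretches, while the Ldhb and Ldhc windows held 0. A count of 0 concerns ACGTG only and does not show that a window lacks other forms of the core. Over the 27025 genes with a window in the RefSeq table, 16.6% had at least 1 match and 6.84% at least 2. Of the other 5 genes described here, Pcx had 3 matches in its first window, and Hk1, Aldoa, Aldoc and Gapdh had 0. Counting all listed windows, 2 of the 3 for Aldoa held a match, and 1 of the 2 for each of Ldha and Pcx. Gapdh, whose sequence is not shown, had equally narrow deposited ratios, with SDs of 0.16 to Pgk1, 0.18 to Ldha and 0.15 to Ldhb. The matches describe letters only, and no binding was measured. A link between matches and the width of the ratios was not tested.

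Pcx was at or near background. Its deposited intensity was -0.0092, -0.0023, 0.0033, 0.0001 and -0.0011 in mice 1, 3, 4, 5 and 6. It was above 0 in 2 of 5 mice and above the size of the array's lowest value in 0 of 5. These values bound the signal by the background and do not show that the transcript was absent. No ratio or CV is given for Pcx.

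Between the 8 measured genes, ratios to Hk1 and Ldhc were wider than the others in the deposited values. The SD of the log2 ratio over the 5 mice was below the median of all probe pairs, 0.75, in 15 of the 28 pairs, and these 15 were the pairs without Hk1 or Ldhc. By definition, as many of all probe pairs lie below this median as above it. Among Gapdh, Pgk1, Ldha and Ldhb, grouped after their values were seen, the 6 pairs had SDs from 0.15 to 0.25. Leaving out any mouse, or adding the size of the lowest value to each array, gave at most 0.27 for each of these 6. After quantile normalisation the pairs of Gapdh with Pgk1, Ldha and Ldhb widened to 0.38, 0.42 and 0.38, while the other 3 were between 0.19 and 0.25, beside a median over all probe pairs of 0.72. Pairs of Aldoa with these genes had SDs from 0.23 to 0.36 and pairs of Aldoc from 0.58 to 0.66. Pairs of Hk1 other than that with Ldhc ran from 0.96 to 1.24, and the 7 pairs of Ldhc from 1.36 to 1.96. Both are dim probes. Of all pairs of a bright and a dim probe, 59.5% to 70.7% had smaller SDs than those of Hk1 with bright genes. For Ldhc with bright genes the shares were 77.1% to 89.3%. Of the pairs of 2 dim probes, 38.4% had a smaller SD than Hk1 to Ldha, 80.1% than Ldha to Ldhc and 86.1% than Hk1 to Ldhc.

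The width of the ratios to Hk1 and Ldhc depended on single mice and on the background. Those 6 pairs of Hk1 ran from 0.28 to 0.69 without mouse 5, where Hk1 was not above the size of the lowest value and the median over all probe pairs was 0.70. They ran from 0.35 to 0.70 after quantile normalisation and from 0.28 to 0.56 with the size of the lowest value added, where that median was 0.50. Without mouse 1, where the median was 0.55, the pair of Ldhc with Aldoc was at 0.38. Those with Aldoa, Gapdh, Pgk1, Ldha and Ldhb were then at 0.93 to 1.07. These pairs of Ldhc, that with Aldoc included, ran from 0.50 to 0.87 with the size of the lowest value added. After quantile normalisation they stayed wide, from 1.40 to 1.70, beside a median of 0.72. The pair of Hk1 and Ldhc was at 1.76 without mouse 1, 1.20 without mouse 5 and 0.81 with the size of the lowest value added.

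Ratios that involve a dim probe spread more widely over the array, and those of Ldha to Gapdh, Pgk1, Ldhb and Aldoa were narrow for a dim probe. The median SD of Ldha to all other probes was 0.51, beside 0.52 for Pgk1, 1.08 for Hk1 and 1.57 for Ldhc. Narrow ratios of Ldha were thus not particular to these enzymes. The ratios of Ldha to Ldhc and Hk1 had SDs of 1.75 and 0.96, beside a median of 1.12 over pairs of 2 dim probes. The SD of the log2 ratio of Gapdh to Ldha was 0.18, with values of 9.20, 8.96, 9.15, 9.47 and 9.11 in mice 1, 3, 4, 5 and 6. Of the pairs of a bright and a dim probe, 0.50% had a smaller SD. Hk1, somewhat dimmer than Ldha (rank 127 against 117 by mean signal), had an SD of 1.13 against Gapdh. That value fell to 0.67 without mouse 5 and was 0.35 with the size of the lowest value added to each array, where the median over all probe pairs was 0.50. After quantile normalisation the ratio of Gapdh to Ldha had an SD of 0.42.

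**Figure D3:**
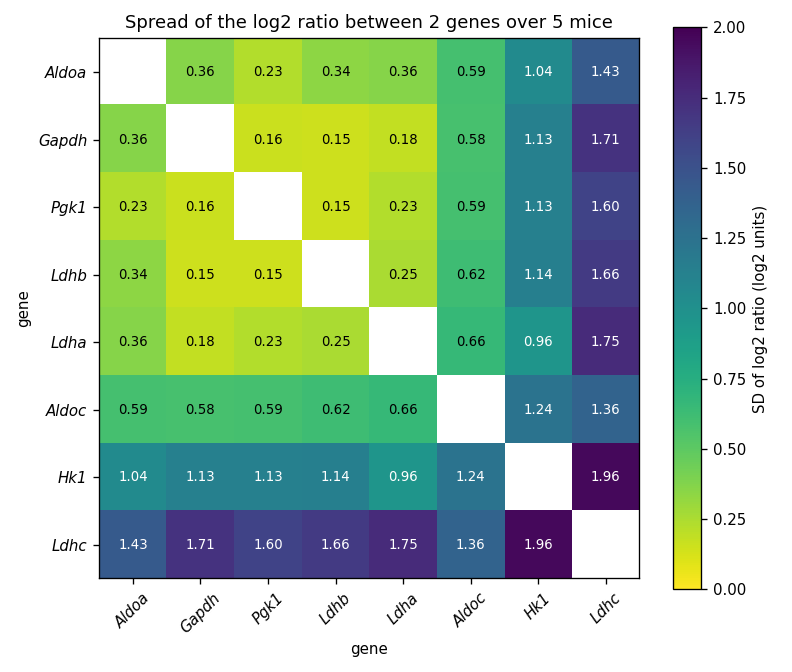
SD over 5 mice of the log2 ratio of deposited intensities for each pair of the 8 genes above 0 on all arrays (both axes list the genes, the colour scale and the printed numbers give the SD in log2 units). Gapdh, Pgk1, Ldhb and Ldha form a block of values from 0.15 to 0.25, and the rows of Hk1 and Ldhc hold values from 0.96 to 1.96. These are deposited values: after quantile normalisation the pairs of Gapdh in the block are between 0.38 and 0.42, and without mouse 5 the pairs of Hk1 other than that with Ldhc lie between 0.28 and 0.69.

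**Figure D4:**
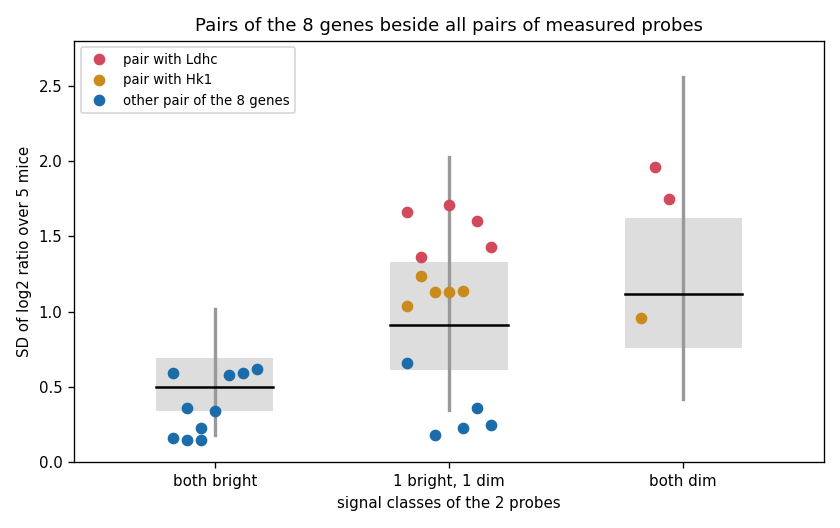
SD of the log2 ratio over 5 mice (y axis) for pairs of the 8 genes (circles, coloured by whether they hold Ldhc or Hk1), in 3 groups by signal (x axis), where bright is the upper class of 49 probes and dim the lower class of 49. Boxes give the quartiles and the median over all pairs of measured probes of the same classes, and grey lines run from the 5th to the 95th percentile. The pairs of Ldha with Gapdh, Pgk1 and Ldhb lie at 0.18, 0.23 and 0.25, under the 5th percentile of 0.35 for a bright and a dim probe. The median SD of Ldha to all other probes was 0.51.

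The genes nearest to each enzyme were taken as the 3 named genes with the smallest SD of the log2 ratio to it. The smallest of so many SDs is small by construction. Pgk1 was nearest to Fabp4, a fatty acid binding protein (SD 0.05), to Mdh2, mitochondrial malate dehydrogenase (0.08), and to the fast myosin chain Myh4 (0.10), beside a median of 0.52 to all other probes. Fabp4 had deposited intensities of 0.228, 0.131, 0.138, 0.134 and 0.205 in mice 1, 3, 4, 5 and 6. Like Pgk1, it was highest in mouse 1 and next highest in mouse 6, while the order of mice 3, 4 and 5 differed. Ldhb was nearest to Pdha1, a subunit of the pyruvate dehydrogenase that competes with it for pyruvate (0.06), to the fast oxidative myosin chain Myh2 (0.09) and to Mdh2 (0.11), beside a median of 0.56. Fabp4 remained nearest to Pgk1 when any mouse was left out, and Pdha1 remained among the 3 nearest to Ldhb. After quantile normalisation Fabp4 was still nearest to Pgk1, at 0.07, while Pdha1 was no longer among the 3 nearest to Ldhb.

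Partners of the other genes depended on the setting. For Gapdh, Aldoa, Aldoc, Hk1 and Ldhc, leaving out a single mouse could replace all 3 nearest genes, as did quantile normalisation for Hk1, Aldoa and Gapdh and the added background for Hk1, Ldha and Ldhc. Gapdh was nearest to Mdh2 (0.11), Eno2, an enolase best known from neurons (0.12), and the protease inhibitor Timp3 (0.13). Leaving out mouse 1 replaced all 3 by others. Ldha was nearest to the laminin chain Lamc1 (0.08), the glucose transporter Slc2a1 (0.14) and the kinase Dmpk (0.16), and Aldoa to the cytochrome oxidase subunit Cox8a (0.14), the myogenic factor Myf6 (0.16) and Pdgfrb (0.17). Aldoc was nearest to the growth factors Tgfb1 (0.33), Igf1 (0.36) and Igf2 (0.41), and Hk1 to Cd44 (0.36), Igfbp3 (0.48) and Mmp10 (0.54). The nearest to Ldhc were Il6st at 0.77, Angpt2 at 0.78 and Scarb2 at 0.81. Its smallest SD was 0.38, to Aldoc, without mouse 1, 0.45 without mouse 5 or mouse 6, and 0.33, to Igf1, with the size of the lowest value added to each array. All 3 partners were also replaced without mouse 1 for Aldoa, Aldoc and Ldhc, without mouse 6 for Aldoc and without mouse 5 for Hk1.

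Probes whose identifiers share the leading number made up 5 of the 24 partners, among them Mdh2 and Myh4 for Pgk1 and Pdha1 and Mdh2 for Ldhb. The sources used here do not say what the number stands for. Pairs of 2 bright probes with the same leading number had a median SD of 0.46, against 0.50 for those with different numbers, and 5th percentiles of 0.11 and 0.20. With such candidates left out, Pgk1 was nearest to Fabp4, Tfrc and Cox4i1, and Ldhb to Myh2, Acadl and Fabp4. Hk1, Pgk1, Ldha and Ldhb share their leading number, and of the 11 named probes with it 6 belong to the fixed lists of glucose, pyruvate and mitochondrial genes, against 18 of all 205 named probes. The part of the shared number in these results was not tested. Fabp4 also marks fat cells. Of the 2 fat cell markers on the array, Lipe was at or below 0 in all mice. Their summed signal, from 0.129 to 0.220, is thus nearly that of Fabp4 alone and no separate measure of fat cells. The part of fat cells, or of any other cell type, in the Fabp4 result was not tested.

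**Figure D5:**
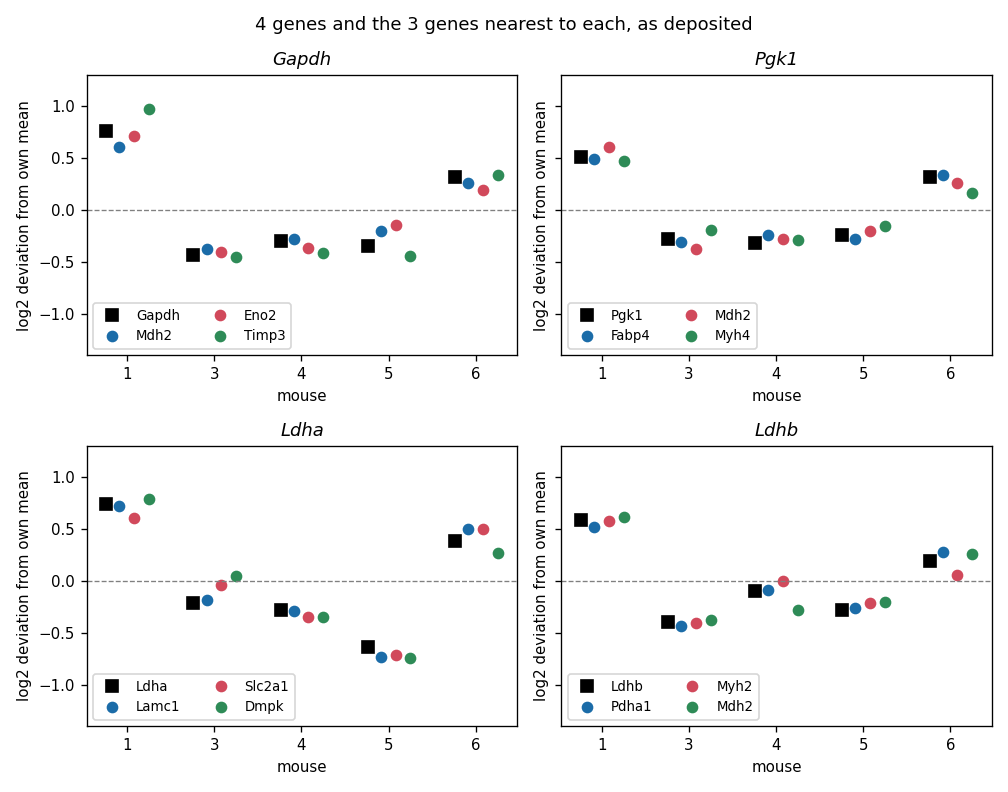
Log2 deviation of the deposited intensity from its own mean over 5 mice (y axis) in each mouse (x axis) for Gapdh, Pgk1, Ldha and Ldhb (black squares) and the 3 genes nearest to each (circles). All genes shown are above their mean in mouse 1, and the partners lie within a narrow band around each enzyme, with Fabp4 at an SD of 0.05 from Pgk1 and Pdha1 at 0.06 from Ldhb.

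The number of enzymes above their own mean in each mouse was read beside the share of all probes. After quantile normalisation, the number of the 8 measured genes above their own mean was 5, 3, 5, 4 and 5 in mice 1, 3, 4, 5 and 6. Over all 147 probes the share above the mean was 55.1%, 44.9%, 52.4%, 54.4% and 49.7%. As deposited, 8 of the 8 genes lay above their mean in mouse 6, where 94.6% of all probes did, and 7 of the 8 in mouse 1, where 66.7% did. Scaled to the array total, 8 of the 8 lay above it in mouse 4, as did 81.6% of all probes. The median CV of the 8 genes was 21.1% after normalisation, beside 32.9% for all 147 probes, and 39.2% beside 45.2% as deposited. Of the 8, 5 were among the brightest 49 probes, where the median CV was 19.5%.

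In the deposited values Eno2, Pdha1, Slc2a4 and Slc2a1 had narrower ratios to Gapdh, Pgk1, Ldha and Ldhb than to the remaining enzymes, with 1 exception. Slc2a1 was at 0.34 to Ldhb and 0.31 to Aldoa. These are other genes of glucose and pyruvate metabolism, but the pattern was not particular to them. Mdh2, Cox6a2, Fabp4, Myh1 and Myh2 had it too, while Cox4i1, Cox8a, Mb, Myh4, Myh7 and the endothelial markers did not. Of 14 genes of the wider list with a probe, 12 were above 0 in all mice, beside 65.9% of all probes. The 14 include the 9 genes described here, and the 12 include 8 of them. Pfkfb2, which makes the activator of phosphofructokinase, was above 0 in 1 mouse. Eno2 was at 0.0979, 0.0451, 0.0464, 0.0541 and 0.0683 in mice 1, 3, 4, 5 and 6, and its log2 ratio had an SD of 0.12 to Gapdh and 0.15 to Pgk1, but 0.61 to Aldoc. Pdha1 had SDs of 0.06 to Ldhb and 0.14 to Pgk1. The insulin-responsive transporter Slc2a4 had an SD of 0.17 to Gapdh and to Ldhb, and Slc2a1 of 0.14 to Ldha but 0.30 to Gapdh. The SDs of these 4 genes ran from 0.31 to 0.43 against Aldoa, from 0.57 to 0.70 against Aldoc, from 0.87 to 1.28 against Hk1 and from 1.60 to 1.71 against Ldhc. The 4 mitochondrial genes with a probe were all above 0 in every mouse. Mdh2, Cox4i1, Cox6a2 and Cox8a had SDs of 0.08, 0.12, 0.16 and 0.24 to Pgk1, beside 0.16 for Gapdh and 0.23 for Aldoa. Cox8a was closer to Aldoa (0.14) than to Gapdh (0.32).

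Fibre type markers were set beside the lactate dehydrogenase ratio, since A and B subunits differ between fast and slow fibres. The slow markers Myh7 and Mb and the fast-fibre genes Myh4, Myh2 and Myh1 were above 0 in every mouse. The log2 ratio of Myh4 to Myh7 was -2.81, -3.25, -3.13, -2.54 and -3.20 in mice 1, 3, 4, 5 and 6. That of Ldha to Ldhb was -5.75, -5.72, -6.09, -6.25 and -5.71 in the same order. Mouse 5 had the lowest ratio of Ldha to Ldhb and the highest of Myh4 to Myh7, and also the highest of Myh2 to Myh7, at -0.72. Its ratio of Ldha to Ldhb rests on an Ldha signal not above the size of that array's lowest value. The ratio of Myh1 to Myh7 was highest in mouse 1, at -1.08, with mouse 5 next at -1.17. Mouse 1 was close to mice 3 and 6 for Ldha to Ldhb. No correlation is given over 5 mice. In these bulk samples fewer cells of a type and less RNA per cell cannot be told apart. The 5 endothelial markers on the array were above 0 in all mice, with a summed signal from 0.264 to 0.633. Of 8 listed immune cell markers, the 5 with a probe (Il1b, Il6, Csf3r, Mmp8 and Mmp9) were at or below 0 in all. Ptprc, Itgam and Cd68 had no probe, so these values do not show that immune cells were absent. Nerve and red blood cell markers were not analysed here.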

How the data were processed

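The deposited values are linear array intensities in arbitrary units for 5 arrays and 223 probes; no source used here names the scanner, background correction or scaling. Per the labels, RNA was isolated from muscle sections with a column kit. Genes were assigned to probes from the platform's annotation table and renamed by gene identifier to current GRCm38.p6 symbols; 205 probes had 1 symbol and 18 had no entry. The genes and the lists beside them were chosen with earlier results of these data known.

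Isoform ratios were taken on deposited intensities within each array, as log2 values, for the 147 probes above 0 on all 5 arrays. For CVs, log2 intensities of these probes were quantile normalised, with linear values used for means and SDs. Probes were split by mean signal into 3 equal classes. Likeness of 2 genes was the SD of their log2 ratio over 5 mice; for each gene the nearest 3 named genes are given. Other named genes come from fixed lists of glucose and pyruvate metabolism, mitochondrial genes and cell type markers. With 1 group no test between conditions was possible and no p-value is given; the number of arrays limits the precision. The labels do not describe how animals were sampled. Scripts in Python 3.11.15 with numpy 2.4.6, pandas 2.3.3 and matplotlib 3.10.9 were tested on simulated data.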

Additional observations from a re-analysis of the deposited data

How the results depend on the processing

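The alternative runs were quantile-normalised values, the size of each array's lowest value added as background, and each mouse left out. In the first of these the mean log2 ratios of all 4 isoform pairs moved by less than 1 SD between mice. With the added background the same held except for Ldha to Ldhb. This SD was wide for Ldha to Ldhc, 1.75, and Ldhb to Ldhc, 1.66, so the limit was loose there. Leaving out 1 of 5 mice cannot move a mean by 1 SD, so those runs were not judged by this limit. Leaving out each mouse gave a mean of 4.34 to 4.73 for Aldoa to Aldoc, -5.95 to -5.82 for Ldha to Ldhb, -0.58 to 0.48 for Ldha to Ldhc and 5.37 to 6.44 for Ldhb to Ldhc. With the background added, Ldha to Ldhb moved from -5.90 to -5.18. The ratio of Ldha to Ldhc, at 0.09, turned to -0.12 with the background added, to -0.58 without mouse 1 and to -0.06 without mouse 3, so it has no settled sign. The count of genes above 0 in all mice, 8, was 5 under the stricter limit. The median CV, 21.1%, was 39.2% as deposited. As deposited, 1 gene lay above its own mean in each of mice 3, 4 and 5, beside 37.4%, 32.7% and 12.2% of all probes. In mouse 6, 8 genes did, beside 94.6% of all probes. With median scaling, 3 genes did in mice 4 and 6, beside 56.5% and 46.9%. Scaled to the total, 8 genes did in mouse 4, beside 81.6%. Of the 8 CVs of single genes, 7 changed more than 1.5-fold under some alternative. The 3 nearest genes were checked in alternatives chosen after seeing the data. No paired analysis was possible because there is 1 group. The cause of these changes was not tested. Signals near background limit Hk1, Ldha, Ldhc and Pcx.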
